A study of Sus scrofa with 35 samples.

Results

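B cells recognise antigen with a receptor whose antigen-binding immunoglobulin is held at the membrane by the signalling partners CD79A and CD79B. Engagement of the receptor leads to phosphorylation of tyrosines in their cytoplasmic tails by kinases of the Src family, among them BLK, and the adaptor BLNK then links the kinase SYK to enzymes further down the pathway. MS4A1 is the surface protein CD20, CD22 is a receptor that dampens the signal, BANK1 is a scaffold of the same pathway, PAX5 is the factor that commits a cell to the B lineage and POU2AF1 is the coactivator that assists octamer-binding factors at immunoglobulin promoters. The genes described here are these 9. They were chosen by name from the probes of a pig array, and 6 of them had a probe under that name, with 9 probes out of 60305 in all. BLNK had 3 probes, CD79A had 2, and BLK, CD79B, MS4A1 and POU2AF1 had 1 each. All 9 probes were among the 39072 with a log2 value in the authors' table, and all 9 were well above background on each of the 35 arrays. CD22, PAX5 and BANK1 had no probe under their names in the files used here and are not analysed here, except for 1 probe tied to PAX5 by a sequence accession, which is described apart from the others.

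Messenger RNA of whole blood was measured in 35 castrated male growing pigs, with 1 array for each pig. Breed was Creole (CR), a local breed of the Caribbean, Large White (LW), a commercial breed, or their F1 cross. Climate was thermoneutral (TN, 24 °C) or heat stress (HS) for 4 or 5 d, with HS at 30 °C in the sample labels and at 32 °C in the protocol text. In the study, TN pigs were slaughtered before the temperature rose and HS pigs after these days of heat. Climate therefore cannot be told apart from day of slaughter and the age that goes with it. Each of the 6 groups held 6 pigs, except CR TN with 5. The arrays lay on 5 slides, each with pigs of both climates, and 55.2% to 68.0% of the probes of an array were well above background. Before normalisation the F1 TN arrays were the dimmest, with a 75th percentile of processed intensity of 112 to 186, against 172 to 266 in F1 HS.

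The probe sequences that matter for the results are shown here, 5′ to 3′. The first CD79A probe is shown because it holds the spaced tyrosine codons of an activation motif, the site that kinases phosphorylate in the receptor tail. Its capitals mark 2 runs of 4 codons in the frame without a stop codon, each opening with a tyrosine codon and closing with a leucine or isoleucine codon, and 7 codons lie between them.
CD79A A_72_P070401: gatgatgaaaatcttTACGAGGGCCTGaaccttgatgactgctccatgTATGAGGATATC
A pair of such runs, 6 to 8 codons apart in a forward frame without a stop codon, was found in 28 of the 39072 probes (0.0717%). The BLNK probes are shown because their estimates of the heat difference in LW pigs were unlike. A_72_P489950 and A_72_P682918 shared 53 of their 60 bases and are not independent measurements. The last 30 of the shared bases hold the letters AATAAA, in capitals, the usual polyadenylation signal. Those letters occurred on the printed strand of 11.7% of the 39072 probes and on either strand of 15.5%. The remaining BLNK probe shared no run of 25 bases or more with them.
BLNK A_72_P489950 and A_72_P682918, shared stretch: tactaacattctccaAATAAAtgtctctat
BLNK A_72_P025221: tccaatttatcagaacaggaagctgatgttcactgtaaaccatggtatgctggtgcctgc
The probes of BLK and PAX5 are shown because their values followed those of the other genes least.
BLK O7613: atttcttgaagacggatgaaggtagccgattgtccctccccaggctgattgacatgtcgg
PAX5 A_72_P710009: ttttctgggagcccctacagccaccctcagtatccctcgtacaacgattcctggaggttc
No genome was used and the files place no probe on a chromosome, so positions are not given.

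Under heat, BLNK, MS4A1, POU2AF1 and CD79B rose by 1.21-fold to 1.30-fold in blood, averaged over the breeds. For CD79A and BLK the difference was also above 0 but did not pass the test. Of the 9 probes, 6 were called higher in HS (adjusted p under 0.05 in limma over all 39072 probes, two-sided) and 0 lower. The 3 BLNK probes, with the overlapping pair, were among those called. The probe tied to PAX5, which is not among the 9, was called lower. Over all probes with a log2 value, 34.8% were called, 20.1% higher and 14.7% lower. The study's own model also held pen, day of slaughter and parents, and it reported far fewer changed probes in blood. These effects could not be fitted here, so the p-values may be too small. The median difference of the 9 probes was 0.33 on the log2 scale, with a range of 0.19 to 0.38, against a median of 0.06 over all probes. Whole blood is a mixture of cells, so fewer or more B cells cannot be told apart from less or more of these RNAs in each B cell. The calls depended on part of the arrays. Without the F1 pigs, 0 of the 9 probes were called and 1 had an unadjusted p under 0.05, as 0 of all 39072 probes were called. Without the 8 arrays of slide 3, 0 were called and 1 had an unadjusted p under 0.05, while 13.2% of all probes were still called.

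**Figure D1:**
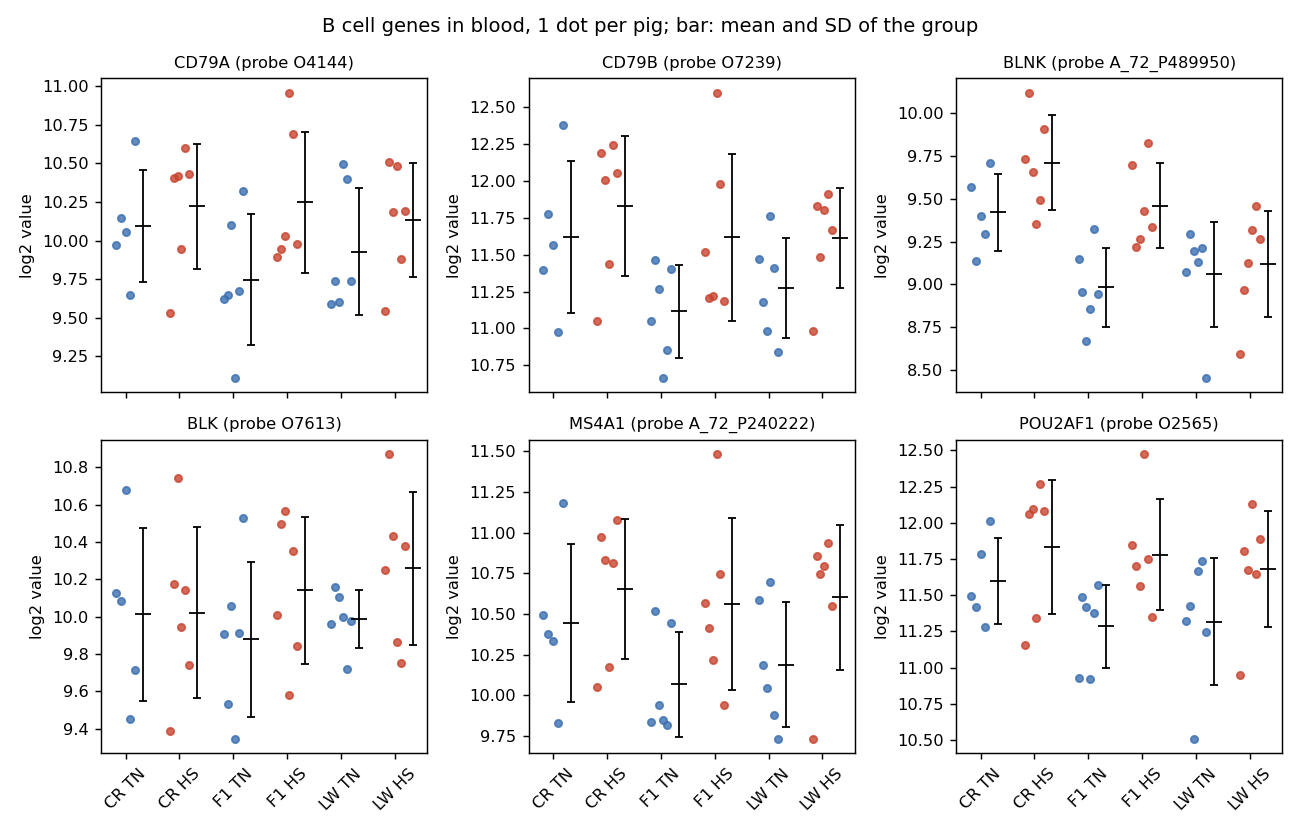
Log2 value of the brightest probe of each gene (vertical axis, own range in each panel) in the 6 groups of breed and climate (horizontal axis). A dot is 1 pig, blue for TN and red for HS, and the bar beside the dots is the group mean ± SD. HS and TN pigs of the same breed overlapped for all 6 genes.

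On none of the 9 probes did every HS pig of a breed stand above every TN pig of that breed, which was the case for 0.417% of all probes in CR, 3.59% in F1 and 0.683% in LW.

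CD79A and CD79B form the signalling part of the receptor. For CD79B, the 5 CR TN pigs had log2 values of 10.98, 11.40, 11.57, 11.77 and 12.38, and the CR HS pigs ran from 11.05 to 12.24 with a median of 12.03. The F1 TN pigs ran from 10.67 to 11.46 (median 11.16) and the F1 HS pigs from 11.19 to 12.60 (median 11.37). The LW TN pigs ran from 10.84 to 11.76 (median 11.30) and the LW HS pigs from 10.99 to 11.91 (median 11.73). HS pigs stood above the TN mean of their breed in 15 of 18 cases, and the climates overlapped in each breed. The difference was 0.35 ± 0.14 (SE), with a 95% interval of 0.07 to 0.63 and an adjusted p of 0.0445 (limma). This value lay close to the threshold, and leaving out any of 18 of the 35 pigs, 1 at a time, raised the adjusted p above it (range over the 35 fits 0.0146 to 0.0792). These pigs were CR TN 1 and 4, CR HS 2, 3, 5 and 6, F1 TN 1, 4 and 5, F1 HS 4 and 5, LW TN 2, 3 and 6 and LW HS 2, 4, 5 and 6, numbered within each group. Without slide 3 the difference was 0.13 (adjusted p = 0.516, limma).

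The 2 probes of CD79A gave nearly the same picture. On the brighter probe, O4144, CR TN pigs were at 9.65, 9.97, 10.05, 10.15 and 10.65, against 9.53 to 10.60 (median 10.41) in CR HS pigs. F1 pigs ran from 9.11 to 10.32 (median 9.66) in TN and from 9.90 to 10.96 (median 10) in HS, and LW pigs from 9.59 to 10.50 (median 9.74) in TN and from 9.54 to 10.51 (median 10.19) in HS. All 6 F1 HS pigs were above the F1 TN mean, but only 2 were above the highest F1 TN pig. The difference of HS minus TN was 0.28 ± 0.13 on O4144 (adjusted p = 0.0896) and 0.33 ± 0.14 on the probe with the activation motif (adjusted p = 0.0537), both by limma. With slide as a block in the fit, the motif probe was past the threshold (0.33 ± 0.12, adjusted p = 0.0395, limma) and O4144 was not. An identical 60-base copy of O4144 elsewhere on the arrays differed from it by a median of 0.04, against an SD between pigs of a group of 0.41, so spot-to-spot error was small beside the spread between pigs. On this copy HS minus TN was 0.27 ± 0.14 and was not called (adjusted p = 0.123, limma).

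BLNK had the smallest adjusted p, on probe A_72_P025221. CR TN pigs were at 8.70, 8.76, 8.76, 8.99 and 9.25 on this probe, and CR HS pigs ran from 8.82 to 9.39 (median 9.18). F1 pigs ran from 8.14 to 8.74 (median 8.49) in TN and from 8.55 to 9.46 (median 8.89) in HS. In LW pigs the values were 8.15 to 8.82 (median 8.43) in TN and 8.20 to 9.17 (median 8.91) in HS. HS pigs lay above the TN mean of their breed in 16 of 18 cases, and 4 of 6 HS pigs of F1 and of LW were above every TN pig of that breed. The difference was 0.37 ± 0.093, or 1.29-fold, with a 95% interval of 0.18 to 0.56 (adjusted p = 0.00403, limma). The overlapping pair gave 0.28 ± 0.093 (adjusted p = 0.0212) and 0.28 ± 0.10 (adjusted p = 0.0325), both by limma. Over the 35 fits that each left out 1 pig, the brightest BLNK probe, A_72_P489950, stayed past the threshold (adjusted p 0.0056 to 0.0392). It lost its call without the F1 pigs (0.17, adjusted p = 0.417), with the mean of erythroid genes as a covariate (0.20, adjusted p = 0.284), and without slide 2 (0.30, adjusted p = 0.0546), slide 3 (0.20, adjusted p = 0.200) or slide 5 (0.25, adjusted p = 0.0563), all by limma.

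The BLNK probes had unlike estimates in LW pigs. There the heat difference was 0.36 ± 0.16 on A_72_P025221, 0.06 ± 0.15 on A_72_P489950 and −0.07 ± 0.16 on A_72_P682918, and none of these was called. The last 2 probes are the overlapping pair. Their correlation with each other was 0.95 over the 35 pigs, and with A_72_P025221 it was 0.72 and 0.74, with group means left in. With group means taken out these were 0.90, 0.49 and 0.59. Probes under the same gene name thus gave different estimates in this breed. Whether the probes differ beyond their SEs was not tested, and neither was a cause.

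BLK, a kinase of the Src family, was the member with the smallest difference. CR TN pigs were at 9.45, 9.71, 10.08, 10.13 and 10.68, and CR HS pigs ran from 9.39 to 10.74 (median 10.04). F1 pigs ran from 9.34 to 10.53 (median 9.91) in TN and from 9.58 to 10.56 (median 10.18) in HS. LW pigs ran from 9.72 to 10.16 (median 9.99) in TN and from 9.75 to 10.87 (median 10.31) in HS. The climates overlapped in each breed, and 11 of 18 HS pigs stood above the TN mean of their breed. The difference was 0.19 ± 0.13, and its 95% interval of −0.07 to 0.44 covers both no change and changes as large as those of the other genes (adjusted p = 0.248, limma).

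The surface protein MS4A1 was at 9.83, 10.33, 10.38, 10.49 and 11.18 in the CR TN pigs and ran from 10.05 to 11.08 (median 10.82) in the CR HS pigs. In F1 pigs it ran from 9.82 to 10.52 (median 9.90) in TN and from 9.94 to 11.48 (median 10.49) in HS. In LW pigs it ran from 9.73 to 10.70 (median 10.12) in TN and from 9.73 to 10.94 (median 10.77) in HS. The lowest LW HS pig was level with the lowest LW TN pig, while 4 of 6 LW HS pigs exceeded every LW TN pig. MS4A1 rose by 0.38 ± 0.14 on the log2 scale, or 1.30-fold (95% interval 0.09 to 0.66, adjusted p = 0.0344, limma). Leaving out any of 7 pigs raised the adjusted p above the threshold, to 0.0614 at most, and these were CR TN 4, F1 TN 1 and 4, F1 HS 4 and 5, LW TN 6 and LW HS 2, numbered within each group. Without slide 3 the difference was 0.17 (adjusted p = 0.450, limma).

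The lineage coactivator POU2AF1 was at 11.28, 11.42, 11.50, 11.78 and 12.02 in CR TN pigs and ran from 11.16 to 12.27 (median 12.07) in CR HS pigs. F1 TN pigs ran from 10.92 to 11.57 (median 11.40) and F1 HS pigs from 11.35 to 12.48 (median 11.72). LW TN pigs ran from 10.51 to 11.73 (median 11.37) and LW HS pigs from 10.95 to 12.13 (median 11.74). In both CR and F1, 4 of 6 HS pigs were above every TN pig of the breed. The difference was 0.37 ± 0.12, or 1.29-fold (95% interval 0.12 to 0.62, adjusted p = 0.0212, limma). An identical copy of this probe gave 0.37 ± 0.12 (adjusted p = 0.0134, limma). Without any single pig the adjusted p stayed between 0.0063 and 0.0374, but without slide 3 the difference was 0.17 (adjusted p = 0.340, limma).

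**Figure D2:**
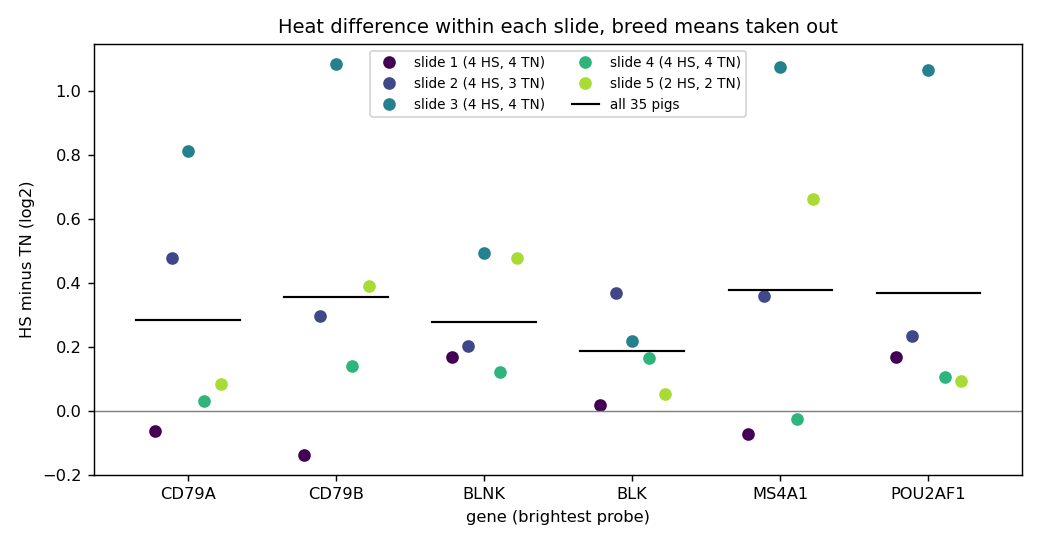
Difference of HS minus TN in log2 units (vertical axis) on the brightest probe of each gene (horizontal axis), within each of the 5 slides after the mean of each breed was taken out. Black lines give the value over all 35 pigs, and slide 3 stood highest for CD79A, CD79B, MS4A1 and POU2AF1, at 0.81 to 1.08.

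The slides differed in the size of the difference. Within slide 3, with 4 HS and 4 TN pigs, MS4A1 differed by 1.07, CD79B by 1.08, POU2AF1 by 1.06 and CD79A by 0.81, after breed means were taken out. Within slide 1 the same values were −0.07 for MS4A1, −0.14 for CD79B, 0.17 for POU2AF1 and −0.06 for CD79A, and slide 4 gave −0.03 to 0.14 for these genes. BLNK was above 0 on all 5 slides, at 0.12 to 0.49, and so was BLK, at 0.02 to 0.37. On slide 5 the TN pigs were LW and the HS pigs CR or F1, so no breed was there in both climates. Its values set pigs of unlike breeds against each other. The BLNK value of slide 5, 0.48, includes LW TN 6, which was low on this probe at 8.45. A slide held between 4 and 8 pigs, so these values carry no test. With slide as a block over all pigs, 7 of the 9 probes were called.

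Heat was then compared within each breed. In F1 pigs, 4 of the 9 probes were called higher, the 3 of BLNK (0.48 to 0.53, adjusted p 0.0119 to 0.0191, limma) and the motif probe of CD79A (0.58 ± 0.23, adjusted p = 0.0462, limma), in a comparison where 38.7% of all probes were called, 20.8% higher and 17.9% lower. MS4A1, CD79B and POU2AF1 differed by 0.49 to 0.50 in F1 and did not pass the test (adjusted p 0.0652 to 0.103, limma). In CR pigs 0 of the 9 were called and 1 had an unadjusted p under 0.05, with 0 of all 39072 probes called. In LW pigs 0 were called and 1 had an unadjusted p under 0.05, again with 0 of all probes called. The differences in CR ran from 0.01 for BLK to 0.39 for the BLNK probe A_72_P682918, and those in LW from −0.07 for the same BLNK probe to 0.41 for MS4A1. In all, 8 of the 9 probes had a difference above 0 in each breed, as had 34.4% of all probes.

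**Figure D3:**
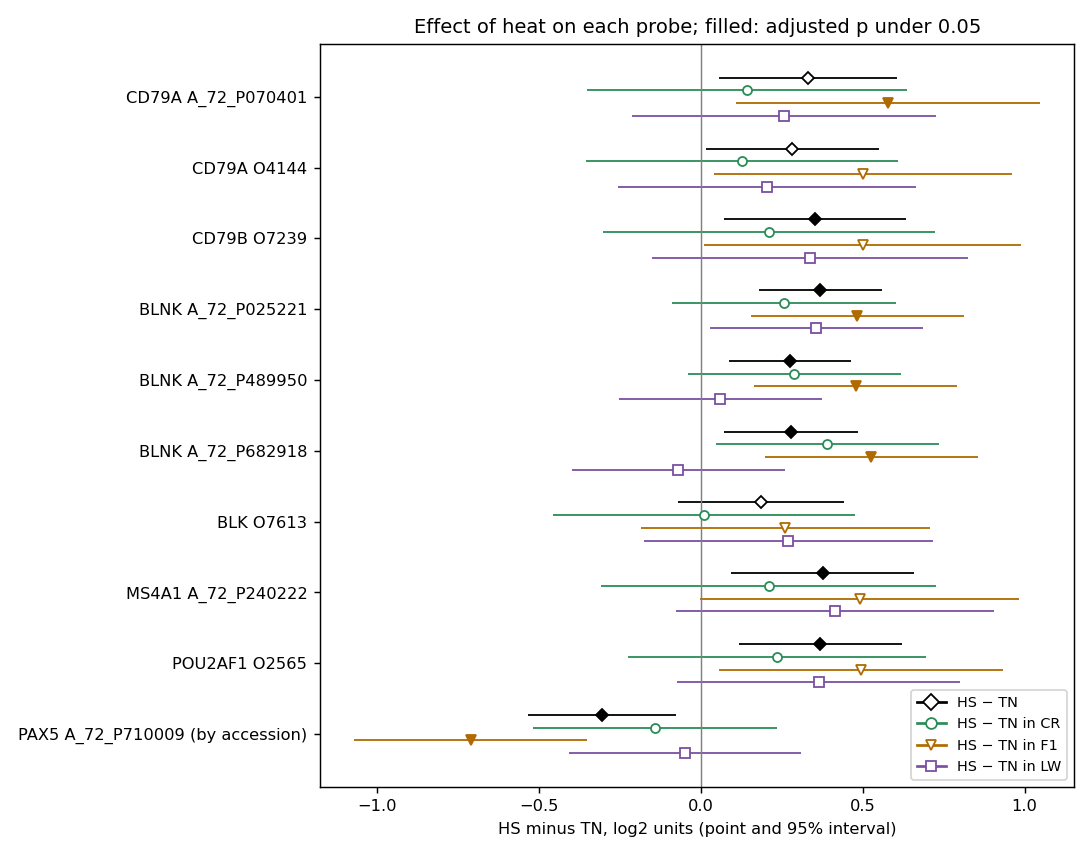
Difference of HS minus TN in log2 units with its 95% interval (horizontal axis) for each probe (vertical axis), over all breeds and within CR, F1 and LW pigs. Filled symbols had an adjusted p under 0.05, and only the PAX5 probe, named by accession, lay below 0 in all 4 estimates.

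The breeds were not shown to differ in their response. For the interaction of breed and climate, limma called 0 of the 9 probes and 0 of all probes. An unadjusted p under 0.05 was found for 1 member probe, A_72_P682918 of BLNK (adjusted p = 0.310, limma). The calls in F1 but not in CR or LW do not show a breed difference. The count in F1 also moved with the fit, from 4 probes to 8 with slide as a block, 1 with array weights, and 0 without slide 3.

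The level between breeds differed for BLNK. Over both climates A_72_P489950 was 0.48 ± 0.11 higher in CR than in LW pigs, or 1.39-fold (95% interval 0.24 to 0.71, adjusted p = 0.0266, limma). It was the only one of the 9 probes called in CR minus LW, where 1.08% of all probes were called. Its overlapping partner differed as much, by 0.48 ± 0.13 (adjusted p = 0.0534), and A_72_P025221 by 0.37 ± 0.12 (adjusted p = 0.127), both by limma. The call rested on single pigs, and leaving out 1 of 35 gave between 0 and 2 called probes, with 0 without CR TN 5, CR HS 2, CR HS 6, LW HS 1 or LW HS 2. The count was also 0 without slide 1, 2 or 5. In HS pigs alone A_72_P682918 was 0.70 ± 0.16 higher in CR than in LW (adjusted p = 0.0398, limma), the 1 call among the 9 probes, against 0.392% of all probes. That count was 0 with slide as a block (lowest adjusted p = 0.0631), with the scaled processed intensity (0.0583), with no filter on dim probes (0.0595), with the mean of a gene's probes (0.100) and without any of the 5 slides (0.0543 to 0.638), all by limma, and 2 with array weights. In TN pigs alone 0 of the 9 were called by limma and 2 had an unadjusted p under 0.05, both of BLNK, with 0.0845% of all probes called.

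Group means of A_72_P489950 were 9.71 ± 0.28 (SD, n = 6) in CR HS, 9.46 ± 0.25 (n = 6) in F1 HS, 9.42 ± 0.22 (n = 5) in CR TN, 9.12 ± 0.31 (n = 6) in LW HS, 9.06 ± 0.31 (n = 6) in LW TN and 8.98 ± 0.23 (n = 6) in F1 TN, from highest to lowest. The SDs of neighbours in this order overlapped throughout. MS4A1, CD79B and POU2AF1 were all highest in CR HS and lowest in F1 TN by their group means. For CD79B these were 11.83 ± 0.48 (n = 6) and 11.12 ± 0.32 (n = 6). F1 minus CR had 0 of the 9 probes called by limma, with 4 at an unadjusted p under 0.05, and F1 minus LW had 0 called and 0 at an unadjusted p under 0.05, against 0.184% and 0.0256% of all probes called.

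Between pigs, most members moved together. After group means were taken out, the 2 CD79A probes, CD79B, POU2AF1, MS4A1 and the BLNK probe A_72_P025221 had correlations of 0.69 to 0.96 with each other over 35 pigs. The overlapping BLNK pair had correlations of 0.25 to 0.59 with these 6. BLK had correlations of 0.01 to 0.31 with them and of −0.14 and −0.21 with the pair. These are descriptions of pigs whose arrays share 5 slides, and no p is attached. BLK had its highest correlation among the 10 marker lists with the mean of the T cell list (0.40, over 11 genes) and its lowest with the monocyte list (−0.54, over 9 genes), while CD79A on O4144 had 0.19 and −0.23 with these. What the BLK probe measured besides B cells was not tested.

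**Figure D4:**
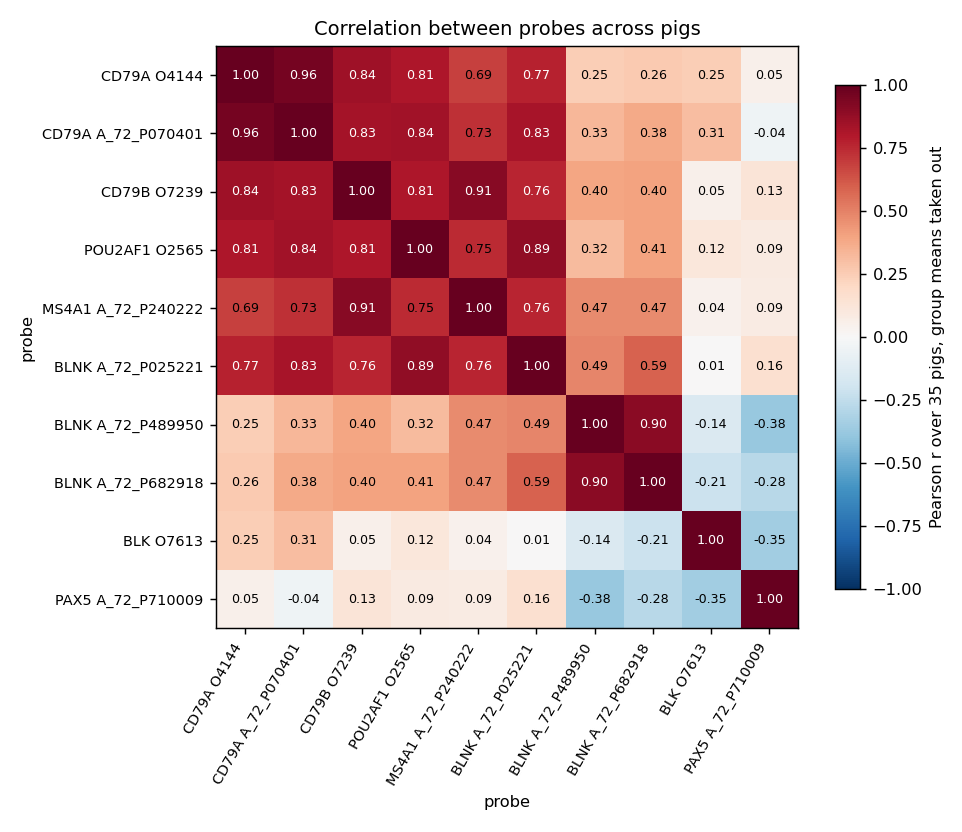
Pearson correlation over 35 pigs between the 9 probes and the PAX5 probe (both axes), after the mean of each group was taken out. The block at the upper left holds CD79A, CD79B, POU2AF1, MS4A1 and the BLNK probe A_72_P025221, at 0.69 to 0.96. The overlapping BLNK pair, BLK and PAX5 stand outside it.

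Among 11415 other named genes, each by its brightest probe, the 6 with the highest correlation with the mean of the 6 members, group means taken out, were SPIB (0.90), CD72 (0.90), LOC100519643 (0.88), CHCHD10 (0.87), CBR3 (0.87) and FAM209B (0.86), over 35 pigs. The median over all these genes was 0.01. SPIB is an ETS-family factor of B cells and CD72 a surface receptor of B cells that dampens their signalling. SPIB differed by 0.30 ± 0.13 between HS and TN (adjusted p = 0.0654) and CD72 by 0.33 ± 0.15 (adjusted p = 0.0738), both by limma and both short of the threshold, while CBR3, a carbonyl reductase, rose by 0.47 ± 0.14 (adjusted p = 0.0105, limma).

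The PAX5 probe went the other way. CR TN pigs were at 7.73, 8.06, 8.07, 8.30 and 8.62 and CR HS pigs ran from 7.60 to 8.51 (median 7.93). F1 TN pigs ran from 8.20 to 8.83 (median 8.63) and F1 HS pigs from 7.54 to 8.42 (median 7.86), and LW pigs from 7.49 to 8.58 (median 8.20) in TN and from 8.00 to 8.30 (median 8.11) in HS. All 6 F1 HS pigs were below the F1 TN mean. The probe fell by 0.30 on the log2 scale, with an SE of 0.11 and an adjusted p of 0.0345 (limma), and in F1 pigs it fell by 0.71 with an SE of 0.18 (adjusted p = 0.0028, limma). Its interaction of breed and climate was not called (adjusted p = 0.287, limma). Its correlation with the mean of the 6 members was −0.05 after group means were taken out, and with the mean of the T cell list it was −0.72. The file gives this probe a transcript identifier in place of a gene name, and its link to PAX5 rests on a RefSeq accession alone.

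The wider pathway was described with 3 lists, by the brightest probe of each gene outside the members. Of 54 genes listed, 38 had a probe, and 16 of them rose, 4 fell and 18 were not called, with a median of 0.25 against 0.06 over the 11422 named genes. Over those named genes 22.6% were called higher and 16.5% lower. Without the F1 pigs 0 of the 38 were called by limma and 10 had an unadjusted p under 0.05, and with the erythroid mean as a covariate 0 were called and 4 had an unadjusted p under 0.05. Without slide 3 the number called was 4.

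In receptor signalling, 7 of 17 genes rose and 2 fell. The tyrosine kinases SYK (0.35 ± 0.12, adjusted p = 0.0264) and BTK (0.31 ± 0.12, adjusted p = 0.0391) rose, as did the adaptor GRB2 (0.30 ± 0.083, adjusted p = 0.00731), all by limma. VAV1, an exchange factor for small GTPases, BCL10, which carries the signal to NF-kappa-B, the phosphatase PTPN6 and the factor NFATC1 also rose, by 0.24 to 0.31. PLCG2, the phospholipase activated by BTK, fell by 0.44 with an SE of 0.12 (adjusted p = 0.00774, limma). VAV2, a relative of VAV1, fell by 0.69 with an SE of 0.14 (adjusted p = 0.00159, limma). Genes of these lists, among them SYK, GRB2, VAV1, BCL10, PTPN6 and NFATC1, are also used by other blood cells.

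**Figure D5:**
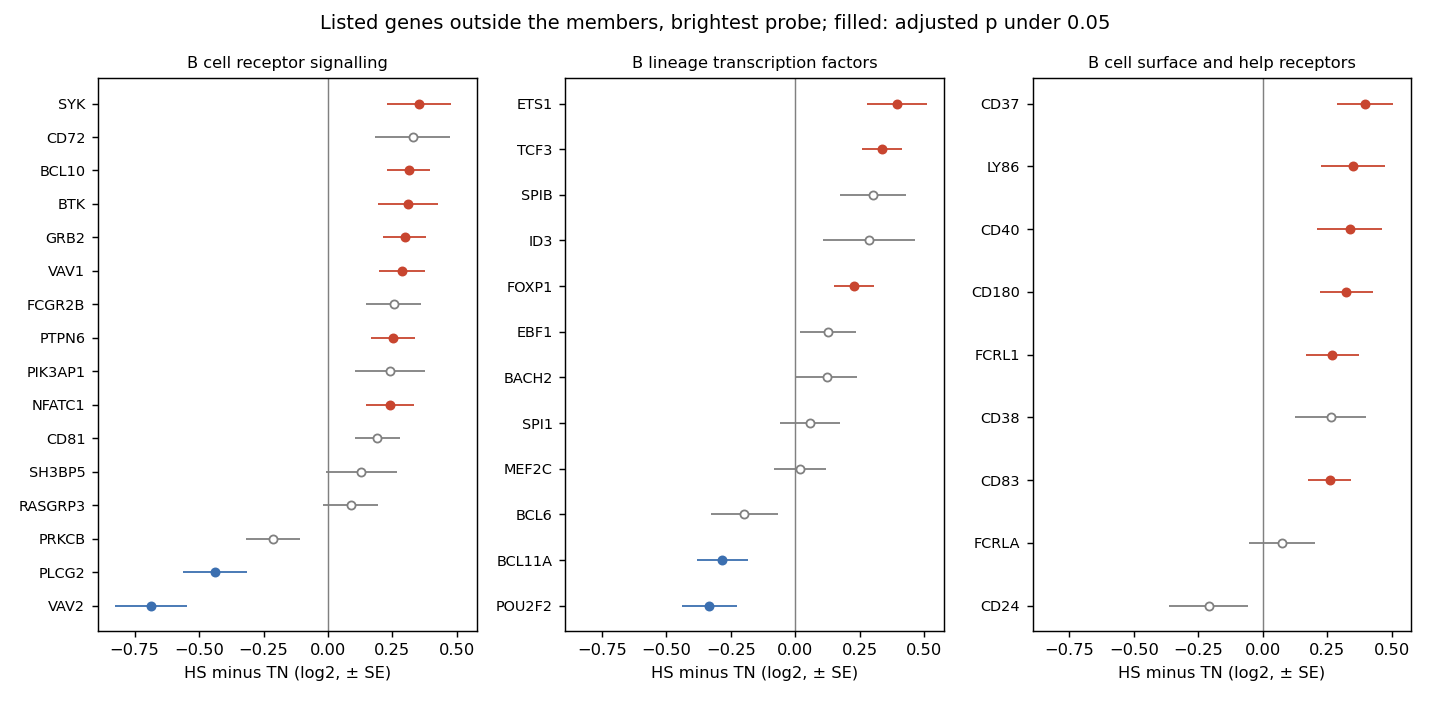
Difference of HS minus TN in log2 units ± SE (horizontal axis) for the brightest probe of the listed genes outside the members (vertical axis), in 3 lists, with 1 gene of the signalling list not shown. Filled symbols had an adjusted p under 0.05, red for higher and blue for lower in HS, and most symbols in the surface list lie above 0.

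Of the B cell surface and help receptors, 6 of 9 rose and 0 fell. CD37 rose by 0.40 ± 0.11 (adjusted p = 0.0067), CD40, which receives T cell help, by 0.34 ± 0.13 (adjusted p = 0.0362) and CD180 by 0.33 ± 0.10 (adjusted p = 0.015), all by limma. LY86, the partner of CD180, rose by 0.35, FCRL1, a receptor of B cells, by 0.27 and CD83 by 0.26. CD24, CD38 and FCRLA were not called. Among 12 lineage transcription factors, TCF3, which acts early in the B lineage (0.34 ± 0.078, adjusted p = 0.00246, limma), ETS1 (0.39 ± 0.12, adjusted p = 0.0104, limma) and FOXP1 (0.23 ± 0.078, adjusted p = 0.0241, limma) rose. POU2F2, the octamer-binding factor that POU2AF1 assists, fell by 0.33 with an SE of 0.11 (adjusted p = 0.0157, limma) and BCL11A by 0.28 with an SE of 0.10 (adjusted p = 0.0281, limma). EBF1 differed by 0.13 ± 0.11 and was not called (adjusted p = 0.367, limma). Of 5 plasma cell genes with a probe, FKBP11 rose and PRDM1, the factor that drives plasma cell formation, fell by 0.35 with an SE of 0.088 (adjusted p = 0.00394, limma).

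Erythroid markers moved with climate too. Of 18 erythroid genes 10 fell and 1 rose, with a median difference of −0.73. The mean of these genes, each centred on its own mean, ran from −0.43 to 1.64 in F1 TN pigs and from −1.71 to 0.11 in F1 HS pigs, from −0.60 to 0.77 in CR TN and −1.09 to 0.59 in CR HS, and from −0.23 to 0.70 in LW TN and −0.70 to 0.36 in LW HS. Its correlation with the mean of the 6 members was −0.47 after group means were taken out. With the erythroid mean as a covariate, 0 of the 9 member probes were called by limma and 1 had an unadjusted p under 0.05, with differences of 0.02 to 0.26, and 1 of all 39072 probes was called. The erythroid mean itself moved with climate, with a group mean of 0.54 in F1 TN and −0.53 in F1 HS. This fit therefore cannot separate the 2, and the share of red cell RNA in the heat differences of the members was not tested. Of the other lists, 3 of 11 T cell genes rose, 2 of 11 cytotoxic genes fell, 3 of 9 monocyte genes rose, 1 of 8 neutrophil genes fell and 0 of 7 platelet genes were called by limma. Over the named genes 22.6% were called higher and 16.5% lower, so these small counts alone do not set the other lists apart. Their median differences were 0.15 for T cell, −0.02 for cytotoxic, −0.10 for monocyte, −0.47 for neutrophil and 0.24 for platelet genes. All 8 neutrophil genes lay below 0 (−1.52 to −0.07) and all 7 platelet genes above it (0.05 to 0.61). The platelet median was close to that of the 3 B cell lists, 0.25.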

How the data were processed

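RNA of whole blood from 35 pigs was hybridised to 1-colour Agilent arrays with probes of 60 bases. The submitters' processing notes name Agilent Feature Extraction 10.10.1.1 and limma, and the deposited scanner intensity values were not normalised between arrays. The authors deposited quantile-normalised log2 values for a filtered set of probes, with the filter's rule not given in the sources used here. They matched the median intensity without background correction. These log2 values were used for all main results. No genome build applies, and arrays have no counting depth, so the number of arrays limits the precision.

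Members were probes, controls left out, whose gene name equalled a member's symbol. Other genes were named by symbol, older symbol or accession through tables of pig genes (Sscrofa11.1 for names alone), and 32278 of 60305 probes had no name. The brightest probe on average stood for a gene. Named genes were the members, list genes called in HS minus TN or between breeds, and the 6 genes most alike over 35 pigs. Members, lists and tests were chosen with earlier results of these data known.

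In R 4.3.3 with limma 3.58.1 (lmFit, eBayes), HS minus TN and breed contrasts were taken from a model with breed and climate and no interaction, and effects within a breed or climate and the interaction from the 6 group means. Adjusted p-values follow Benjamini-Hochberg over the 39072 probes, two-sided, with a threshold of 0.05. The fit was also run on simulated data. These had independent pigs and no slide, pen, litter or day of slaughter, so they cannot show how the fit behaves with such effects. Pen, day of slaughter and parents, random effects in the study, are not in the labels, so pigs were treated as independent. Pigs of a pen, litter or day of slaughter may be alike, so the p-values may be too small. With these effects in its model, the study reported far fewer changed probes in blood than were called here. Alternatives were values rebuilt from the scanner files (largest difference from the authors' values 0.32, with 217 outlier spots set to missing), the processed intensity scaled on its 75th percentile, normexp background correction (offset 50), other filters, slide as a block, array weights, the erythroid mean as a covariate, the mean of a gene's probes, and leaving out F1 pigs, each pig or each slide. Sequences are those of the scanner files. Of the listed genes, 1 that was not called is counted but not reported by name here.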

Additional observations from a re-analysis of the deposited data

Results flagged for a closer look

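Among 60 sets of pigs, 1 for each of the 10 probes in each of the 6 groups, 2 held a pig far from the rest by Dixon's criterion at the 95% level. Chance marks about 1 set in 20, and the 60 sets share pigs, so they are not independent. On the BLNK probe A_72_P489950, LW TN pig 6 had a log2 value of 8.45, below the other 5 pigs at 9.07 to 9.29. On MS4A1, LW HS pig 1 had a log2 value of 9.73, below the other 5 pigs at 10.55 to 10.94. The same pig was also the lowest LW HS pig on every probe of CD79A, CD79B, BLNK and POU2AF1, but not on BLK. The adjusted p of MS4A1 in HS minus TN lay between 0.012 and 0.0614 when each of the 35 pigs was left out in turn.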

How the results depend on the processing

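Of the 9 member probes, 5 to 7 were called in HS minus TN with rebuilt values, the scaled processed intensity, normexp, either other filter, slide as a block or array weights, and 4 of 6 genes with the mean of a gene's probes. The count was 0 without the F1 pigs and 0 with the erythroid covariate, and 2, 0 and 2 without slides 2, 3 and 5, fits that were added after the data were seen. It was 8 without slide 1 and 7 without slide 4. Leaving out 1 pig gave 3 to 8, with 3 without F1 TN 4 or without F1 HS 5. All 9 differences stayed above 0 in each of these fits without a whole group or slide. In F1 pigs the count was 8 with slide as a block, 1 with array weights, 0 with the erythroid covariate, 1 of 6 genes with the mean of a gene's probes and 0 without slide 3, and 2 to 6 without 1 pig. It was 2 without F1 TN 1, F1 TN 4, F1 HS 4 or F1 HS 5. In CR minus LW it was 3 with array weights, 2 with the erythroid covariate, 0 without slides 1, 2 or 5, and 0 to 2 without 1 pig. Listed B cell genes called numbered 0 without F1 pigs and with the erythroid covariate, 5, 4 and 13 without slides 2, 3 and 5, and 15 to 23 without 1 pig, against 20.

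Without F1 pigs HS minus TN was 0.32 for MS4A1, 0.28 for CD79B, 0.17 for BLNK and 0.30 for POU2AF1, and with the erythroid covariate 0.26, 0.19, 0.20 and 0.20. None of these passed the test. CD79B was not called with no filter on dim probes (0.36). CD79A was called with array weights (0.28) and without slide 1 (0.38). MS4A1 lost its call without slides 2, 3 and 5 (0.37, 0.17, 0.33), as did CD79B (0.37, 0.13, 0.35) and BLNK (0.30, 0.20, 0.25), and POU2AF1 without slides 2 and 3 (0.40, 0.17). Within slide 1 the sign turned for MS4A1 (−0.073), CD79A (−0.063) and CD79B (−0.14), and within slide 4 for MS4A1 (−0.027). Without 1 pig HS minus TN ranged from 0.31 to 0.44 for MS4A1, 0.23 to 0.33 for CD79A, 0.29 to 0.41 for CD79B, 0.14 to 0.24 for BLK, 0.24 to 0.32 for BLNK and 0.32 to 0.42 for POU2AF1. CD79A was called without CR TN 5, CR HS 1 or LW HS 1. Counts in CR and LW, for the interaction, F1 minus CR and F1 minus LW were 0 in every fit run. The cause of the lost calls was not tested. No paired analysis was possible because the labels give no replicate numbers, litters or pens that tie pigs of different groups.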
